A study of Homo sapiens with 2 samples.

Results

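The 29 genes described here encode enzymes that make purine and pyrimidine nucleotides and the deoxynucleotides used for DNA synthesis. They were taken by gene symbol from the deposited count table, where all 29 were found among 58735 listed genes. By step they are 12 genes of de novo purine synthesis, 5 genes of de novo pyrimidine synthesis, 7 genes of deoxynucleotide supply, 3 genes of ribonucleotide salvage and 2 nucleoside diphosphate kinases. All 29 passed the count filter, at least 10 counts in at least 1 library, as did 17887 of all listed genes.

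The data compare RNA of PLC8024 cells, an established human hepatocellular carcinoma (HCC) line that the study also calls PLC/PRF/5 and the labels call Alexander cells. The MAEL WT group is 1 library of non-treated wild type cells. The MAEL KO group is 1 library of cells edited at MAEL by Cas9 with a guide RNA on the same plasmid, after which mCherry-sorted cells were grown as single clones. The study asked how loss of MAEL alters stem-like features of HCC cells. With 1 library a group no difference has a replicate check and no p-value is given, and the MAEL genotype and the derivation of a clone cannot be told apart. MAEL itself (chr1:166975582-167022214, GRCh38, plus strand) had 1 count in MAEL WT and 0 in MAEL KO, both under the floor of 3 counts, so its transcript did not check the labels.

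The libraries held 19904136 (MAEL WT) and 20833332 (MAEL KO) counts, with mitochondrial genes at 4.42% and 4.95%. All 12 hepatocyte markers were detected in both libraries, with summed counts of 279644 and 566408, and all 12 were higher in MAEL KO by TMM scaling, 11 of them also with total counts, with a median of 1.28 on the log2 scale. ALB, the main serum protein made by hepatocytes, went from 59 to 8550 counts, AFP, its fetal relative, from 26 to 1351, and APOA1 from 419 to 4400, while KRT18 at 0.41 and TF at 0.36 differed little. Of 11 markers of leukocytes, endothelium, mesenchyme and erythroid cells, 6 had at least 10 counts in 1 library, with a median of -1.99, and the 11 summed to 670 and 578 counts. PECAM1 had 348 and 392 counts, COL3A1 54 and 136, PDGFRB 122 and 29, COL1A1 92 and 11, DES 14 and 2 and CD68 2 and 5. CD3E and HBB were at 0 in both libraries, PTPRC had 3 and 0 counts and VWF had 1 and 0. These marker differences stood in the same pair of libraries as every value below, and their part in them was not tested. In such bulk RNA, fewer cells that carry a transcript and less of it in each cell cannot be told apart.

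Cells build purine rings on phosphoribosyl pyrophosphate up to inosine monophosphate, which branches to AMP and GMP, and pyrimidine rings up to uridine monophosphate, which leads to UTP and CTP. Salvage enzymes return free bases and nucleosides to nucleotides at lower energy cost. Ribonucleotide reductase turns ribonucleoside diphosphates into deoxynucleotides, thymidylate synthase supplies dTMP, and the transcripts of several of these enzymes are known to peak around the S phase of the cell cycle. Liver is a main site of de novo purine synthesis, and HCC cells draw on these pathways for growth.

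As a group these genes stood higher in the MAEL KO library. Their counts summed to 42644 in MAEL WT, or 0.214% of all counts, and to 59704 in MAEL KO, or 0.287%. Summed FPKM, the deposited measure that scales counts by exon length and library size, went from 449 to 776, a ratio of 1.73. Log2 fold changes, MAEL KO over MAEL WT, were taken from counts scaled by TMM factors with 1 added. Their median was 0.74 over the 29 genes and -0.04 over all 17887 genes. They were above 0 for 28 of the 29 genes, against 48.0% of all genes, and for 24 of the 29 when total counts replaced the TMM factors, against 34.6% of all genes, a scaling that moved the median of all genes by -0.27. Under either scaling 28 of the 29 lay above the median of all genes. This is no separate check, because the change of scaling shifts all genes by nearly the same amount.

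Larger differences came mainly from the deoxynucleotide genes. Of the 29 genes, 11 were above a log2 fold change of 1, against 10.2% of all genes, and 3 were above 2, against 2.16%. With total counts these became 5 and 1, against 6.56% and 1.5% of all genes. Outside the deoxynucleotide steps 5 of 22 genes were above 1 and 0 were above 2. No member was below -1 or below -2, where 16.5% and 5.64% of all genes lay. Among the 12023 genes with at least 100 counts in 1 library, a class that holds all 29, the shares above 0, 1 and 2 were 54.2%, 9.23% and 1.54%. The 95% counting interval, which covers the error of read counting only, lay above 0 for 27 members and below 0 for 1, against 34.8% and 34.7% of all genes.

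**Figure D1:**
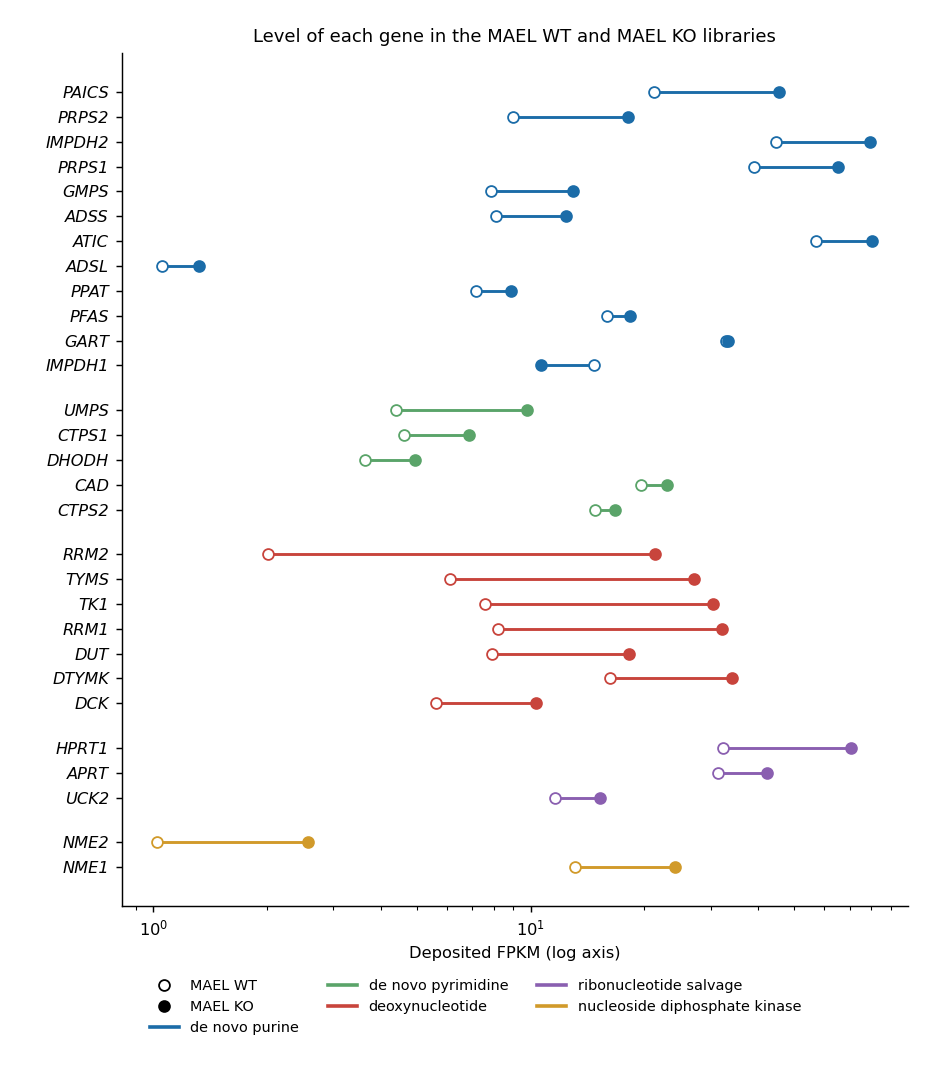
Deposited FPKM (log axis) of each of the 29 genes in the MAEL WT library (open circles) and the MAEL KO library (filled circles), by step. Each line joins the single value of a library; the lines of RRM2, TYMS, TK1 and RRM1 are the longest, and that of IMPDH1 runs the other way.

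By level per exon length, purine genes led in both libraries. ATIC, the enzyme of the last steps to inosine monophosphate, had the highest FPKM of the 29 genes in both, 57.0 in MAEL WT and 80.4 in MAEL KO. IMPDH2, which starts the GMP branch, was next in both at 44.7 and 79.1. NME2 was lowest in MAEL WT at 1.02 and ADSL lowest in MAEL KO at 1.32. Both genes, like RRM2, share coding bases with another row on the same strand, so reads may be missing from their levels. The largest shifts in the order were those of RRM2, from rank 27 to rank 14, and TYMS, from 22 to 11, followed by TK1, from 20 to 10, and IMPDH1, from 12 to 22. These are single values of a library, so neighbours in the order have no measured spread.

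Deoxynucleotide supply had the largest differences of the 5 steps. All 7 genes were higher in MAEL KO under both TMM factors and total counts. With TMM factors 6 of the 7 were above a log2 fold change of 1 and 3 above 2, with total counts 4 and 1, and their median was 1.97, or 1.70 with total counts. Their summed FPKM went from 53.6 to 174, a ratio of 3.24, while the purine genes had a ratio of 1.49, the pyrimidine genes 1.31, salvage genes 1.70 and the nucleoside diphosphate kinases 1.89. Ribonucleotide reductase, which removes the 2′ hydroxyl of ribonucleotides, is built of a large subunit encoded by RRM1 and a small subunit encoded by RRM2. RRM2 (chr2:10120698-10131419, plus strand) went from 235 counts in MAEL WT to 2159 in MAEL KO, or from 2.02 to 21.4 FPKM. Its log2 fold change was 3.40 (95% counting interval 3.22 to 3.61), the largest of the 29, and 0.386% of the genes tested stood higher. RRM1 (chr11:4094707-4138876, plus strand) had 749 and 2543 counts, a log2 fold change of 1.97 (1.86 to 2.09). The transcript of the small subunit thus differed more between these libraries than that of the large one.

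Of the RRM2 exonic bases, 20.2% also belong to AC007240.1 on the same strand, which takes in 78.5% of the coding bases, and AC007240.1 had 10 and 91 counts, a log2 fold change of 3.26. How reads that fall on more than 1 gene were counted is not given in the sources used here. Reads that fit both genes may therefore be absent from either row.

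Thymidylate enzymes were also higher in MAEL KO. TYMS (chr18:657604-673578, plus strand), the thymidylate synthase that methylates dUMP to dTMP, had 330 counts in MAEL WT and 1272 in MAEL KO, a log2 fold change of 2.15 (1.98 to 2.34). TK1 (chr17:78174075-78187233, minus strand), the cytosolic thymidine kinase of salvage, had 308 and 1071 counts, a log2 fold change of 2.0 (1.82 to 2.20). The TK1 value lay just above the threshold of 2 and that of RRM1 just below it, and both intervals include 2. With total counts TYMS was at 1.88, TK1 at 1.73 and RRM1 at 1.70, which leaves RRM2 alone above 2, at 3.13. With protein-coding genes alone, or with 5 added to the counts, 2 members were above 2.

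TYMS shares 46.6% of its exonic bases with genes on the opposite strand. ENOSF1, which covers 39.1%, had 1788 and 2183 counts, a log2 fold change of 0.50, and the antisense RNA TYMSOS had 23 and 65. Whether the counting used strand is not given in the sources used here, so without strand these reads could not be told apart from those of TYMS. The larger neighbour differed less between the libraries than TYMS did.

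The other 3 deoxynucleotide genes differed less. DUT (chr15:48331011-48343373, plus strand), the dUTPase that keeps uracil out of DNA, had 633 and 1267 counts, a log2 fold change of 1.21 (1.07 to 1.35) and of 0.93 with total counts. DTYMK, the kinase from dTMP to dTDP, had 871 and 1589 counts, a log2 fold change of 1.08 (0.96 to 1.20) and of 0.80 with total counts. DCK, which salvages deoxycytidine, had 395 and 630 counts and was the only gene of this step below 1 with TMM factors, at 0.88 (0.70 to 1.07). DUT shares 14.5% of its exonic bases with AC023355.1 on the opposite strand, a row with 15 and 14 counts. DCK shares 19.8% of its coding bases with MOB1B on the same strand, which had 791 and 778 counts.

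**Figure D2:**
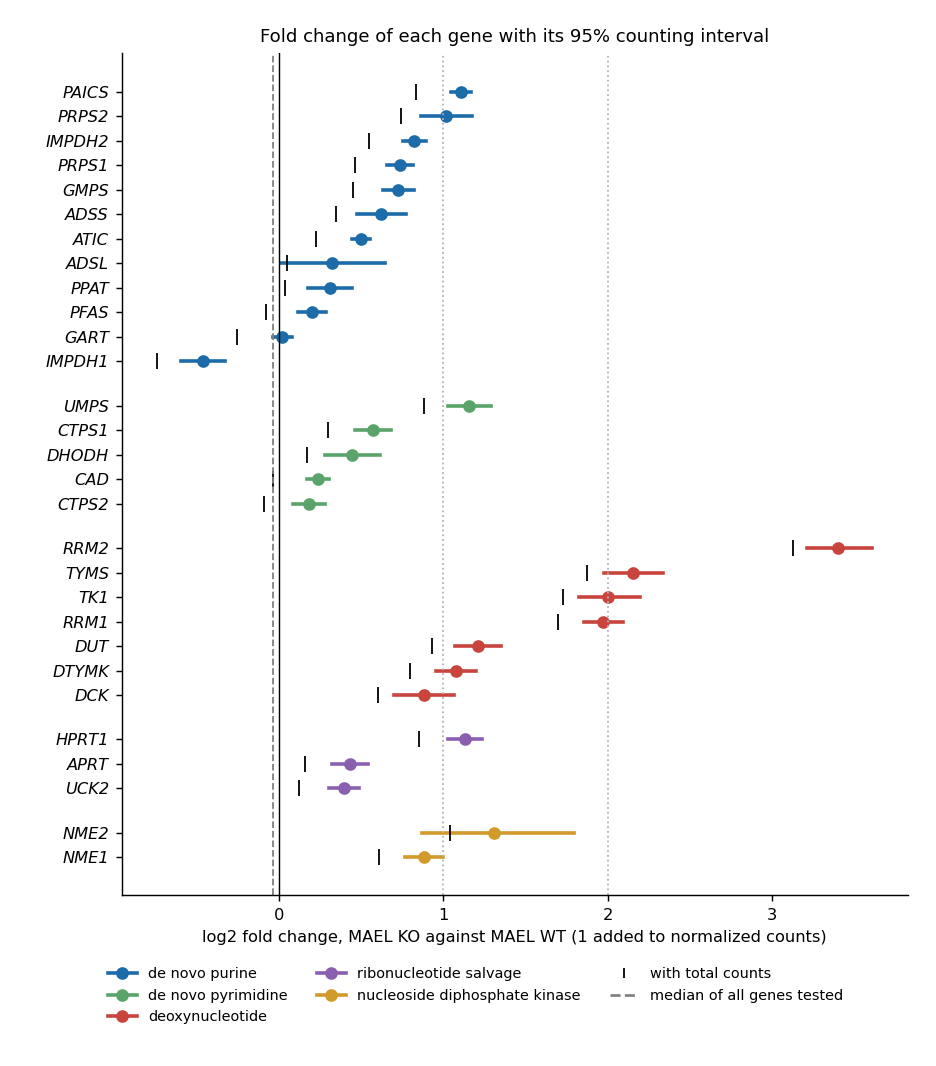
Log2 fold change (MAEL KO over MAEL WT) for each gene (circles, TMM factors, 1 added to normalized counts) with its 95% counting interval (bars), by step. Black ticks give the value with total counts, where 24 and not 28 genes are above 0; the dashed line is the median of all genes tested, -0.04, and the dotted lines stand at 1 and 2.

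The promoter sequences of this step are shown as a description, and the part of their letters in the fold changes was not tested. RefSeq windows of 300 bases, 250 before and 50 after each start (GRCh38.p14), were found for 27 of the 29 genes, 41 windows in all. CCAAT on either strand was present in the windows of 4 of the 7 deoxynucleotide genes, RRM1, RRM2, DTYMK and TK1, in 5 of their 12 windows. Over all 35116 windows 34.6% held it, as did 13 of the 41 windows of the members. The share in this step, 41.7% of windows, was near that of all windows. RRM2 holds 3 near-identical copies in a row, from base -126 to base -50 relative to a RefSeq start and inside the gene as the deposited table lists it. TK1 holds a pair on the other strand, in 1 of its 2 windows and also inside the gene as listed. In the lines that follow capitals mark CCAAT or its reverse complement ATTGG, each printed 5′ to 3′ on the strand of its gene.
RRM2 site 1, chr2:10122613-10122632, plus strand: cagCCAATgggaagggtcgg
RRM2 site 2, chr2:10122643-10122662, plus strand: cagCCAATgggaagggccgg
RRM2 site 3, chr2:10122670-10122689, plus strand: aagCCAATgggaagggccgg
TK1 site 1, chr17:78187117-78187136, minus strand: ggcgctgATTGGccccatgg
TK1 site 2, chr17:78187086-78187105, minus strand: gctcgtgATTGGccagcacg
RRM1, chr11:4094585-4094684, plus strand, the 100 bases before its RefSeq start: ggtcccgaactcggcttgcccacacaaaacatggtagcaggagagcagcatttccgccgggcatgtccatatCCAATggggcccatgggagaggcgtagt

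Letters that E2F factors are known to bind (TTTCCCGC, TTTCGCGC, TTTGCCGC or TTTGGCGC, on either strand) were present in 3 of the 12 deoxynucleotide windows, those of TYMS, DUT and DCK. Over all windows 3.31% held them, as did 5 of the 41 windows of the members, the others belonging to GART and PRPS2. TYMS is printed with capitals on the reverse complement of the first of these words, from base -120 to base -31 relative to its RefSeq start. The capitals lie inside the gene as the deposited table lists it. A match of letters is a description of the window only, and neither word is in every gene of the step.
TYMS, chr18:657533-657622, plus strand: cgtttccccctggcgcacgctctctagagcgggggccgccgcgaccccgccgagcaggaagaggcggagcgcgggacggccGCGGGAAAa

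De novo purine synthesis was higher in MAEL KO by a smaller amount. Of its 12 genes 11 were above a log2 fold change of 0 with TMM factors, 9 with total counts, and 2 were above 1, PAICS and PRPS2, where total counts gave 0. The median was 0.56, or 0.29 with total counts, and the counting interval was above 0 for 10 genes, below 0 for IMPDH1 and included 0 for GART. PRPS1 and PRPS2 make phosphoribosyl pyrophosphate, the sugar on which the ring is built. PRPS1 (chrX:107628424-107651026) had 2248 and 3243 counts, a log2 fold change of 0.74 (0.66 to 0.82). PRPS2 (chrX:12791355-12824222) had 541 and 949 counts, a log2 fold change of 1.02 (0.87 to 1.18). Both supply genes were thus higher in the MAEL KO library, also with total counts, at 0.46 and 0.74.

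The enzymes of the trunk to inosine monophosphate differed among themselves. PPAT, which commits phosphoribosyl pyrophosphate to the pathway, had 854 counts in MAEL WT and 916 in MAEL KO, a log2 fold change of 0.31 (0.18 to 0.45). GART, a protein of 3 enzyme activities, had 5572 and 4892 counts, a log2 fold change of 0.02 (-0.03 to 0.08) and of -0.25 with total counts. PFAS, which adds a nitrogen from glutamine, had 2256 and 2242 counts, a log2 fold change of 0.20 (0.12 to 0.29) that turned to -0.07 with total counts. None of these 3 early enzymes was above 0.31, and the next one stood higher. PAICS (chr4:56435741-56464579, plus strand), which joins a carboxylase and a ligase step, had 3481 and 6486 counts. Its log2 fold change of 1.11 (1.05 to 1.17) was the largest of the purine genes, and it was at 0.83 with total counts. ATIC, the last enzyme of the trunk, had 4893 and 5984 counts, a log2 fold change of 0.50 (0.45 to 0.56).

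PAICS and PPAT stand head to head, and their values can be set against a shared promoter. PPAT (chr4:56393362-56435615, minus strand) begins 125 bases before PAICS as the deposited table lists them, and the bases between are printed in full because both genes are read outward from them. Their GC content is 76%. The ratio of PAICS to PPAT counts was 1.74 times as high in MAEL KO (95% interval 1.57 to 1.93), so the pair did not move by the same factor. CACGTG, the letters bound by MYC and its relatives, was present in the 1 PPAT window and in 1 of the 3 PAICS windows. The printed bases do not hold it. It was in 6 of the 41 windows of the members, those of PPAT, PAICS, ATIC, DHODH, DCK and NME1, and in 7.26% of all windows.
PPAT-PAICS interval, chr4:56435616-56435740, plus strand: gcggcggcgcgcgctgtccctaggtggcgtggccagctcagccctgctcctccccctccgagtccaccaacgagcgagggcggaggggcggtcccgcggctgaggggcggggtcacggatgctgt

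The branches from inosine monophosphate held IMPDH1, the only gene that was lower in MAEL KO with TMM factors, while 5 were lower with total counts. IMPDH1 (chr7:128392277-128410252, minus strand) encodes an enzyme that opens the GMP branch and had 1177 counts in MAEL WT and 738 in MAEL KO. Its log2 fold change was -0.46 (-0.60 to -0.33), or -0.74 with total counts. IMPDH2 (chr3:49024325-49029408, minus strand), the other enzyme of that step, had 2714 and 4158 counts, a log2 fold change of 0.83 (0.76 to 0.90). GMPS, which completes GMP, had 1522 and 2179 counts, a log2 fold change of 0.73 (0.63 to 0.82). The GMP branch thus held both a lower and a higher isoenzyme.

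On the AMP side both enzymes were higher. ADSS, the adenylosuccinate synthase, had 649 and 864 counts, a log2 fold change of 0.62 (0.47 to 0.77). ADSL, the lyase of the next step that also acts in the trunk, had 164 and 178 counts, a log2 fold change of 0.33 (0.01 to 0.64) and of 0.05 with total counts. ADSL shares 68.8% of its coding bases with AL022238.4 on the same strand, a row with 3 counts in each library, so reads of either may be missing from its level.

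**Figure D3:**
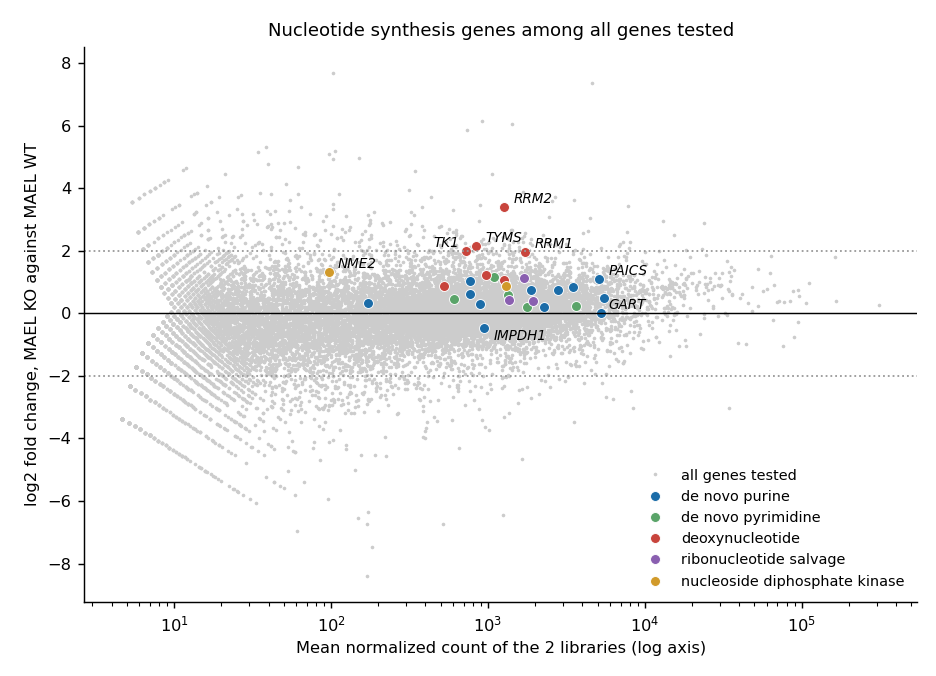
Log2 fold change (MAEL KO over MAEL WT) by mean normalized count (log axis) for the 17887 genes tested (grey) and the 29 nucleotide synthesis genes (coloured by step), 1 library a group. RRM2, TYMS and TK1 lie above 2, GART lies at 0.02 and IMPDH1 at -0.46.

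De novo pyrimidine synthesis differed least by summed FPKM, which went from 47.0 to 61.4. The median log2 fold change of its 5 genes was 0.45, or 0.17 with total counts, and all 5 were above 0 with TMM factors but 3 with total counts. CAD, the protein of the first 3 steps, had 3603 and 3678 counts, a log2 fold change of 0.24 (0.17 to 0.31) and of -0.04 with total counts. DHODH, the mitochondrial enzyme of the pathway, had 549 and 647 counts, a log2 fold change of 0.45 (0.28 to 0.61). UMPS (chr3:124730366-124749273, plus strand), which completes uridine monophosphate, had 729 and 1408 counts. At a log2 fold change of 1.16 (1.03 to 1.29) it was the only pyrimidine gene above 1, and it was at 0.88 with total counts.

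CTP synthases make CTP from UTP, and the pair differed in opposite order to its levels. CTPS2 was the higher of the pair in both libraries, at 14.8 and 16.8 FPKM against 4.61 and 6.85 for CTPS1. CTPS1 had 1162 and 1495 counts, a log2 fold change of 0.57 (0.46 to 0.69). CTPS2 had 1782 and 1750 counts, a log2 fold change of 0.18 (0.09 to 0.28) that turned to -0.09 with total counts.

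Ribonucleotide salvage genes were higher in MAEL KO under both scalings, with a median of 0.43, or 0.16 with total counts. HPRT1 (chrX:134460153-134520513, plus strand), which salvages hypoxanthine and guanine, had 1149 and 2176 counts, a log2 fold change of 1.13 (1.03 to 1.24). APRT, which salvages adenine, had 1239 and 1447 counts, a log2 fold change of 0.43 (0.32 to 0.54). UCK2, a kinase of uridine and cytidine, had 1795 and 2043 counts, a log2 fold change of 0.40 (0.30 to 0.49). HPRT1 was the only gene of the 3 above 1, but at 0.85 with total counts, and by FPKM only ATIC and IMPDH2 stood above it in MAEL KO.

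Nucleoside diphosphate kinases pass the last phosphate to the triphosphates. NME1 (chr17:51153536-51162428) had 985 and 1572 counts, a log2 fold change of 0.88 (0.77 to 1.00). NME2 (chr17:51165435-51171747), its neighbour, had 59 and 128 counts, a log2 fold change of 1.31 (0.87 to 1.80), the widest interval of the 29. The read-through gene NME1-NME2, with 0 and 4 counts, holds all of the NME2 coding bases (100%) and 75.6% of those of NME1. The genes are also close paralogs, so the level of NME2 in particular is uncertain.

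Ratios inside 1 library do not depend on the scaling between libraries, and 4 of the 5 pairs set for comparison differed beyond counting error. The ratio of IMPDH2 to IMPDH1 counts was 2.44 times as high in MAEL KO (95% interval 2.20 to 2.72), and IMPDH2 took 75.3% of the summed FPKM of the pair in MAEL WT and 88.2% in MAEL KO. For RRM2 to RRM1 the ratio was 2.71 times as high (2.31 to 3.18), with the share of RRM2 at 19.8% and 40.0%. Reads that also fit AC007240.1 may be absent from these RRM2 shares. PRPS2 against PRPS1 was 1.22 times as high (1.08 to 1.37). The CTPS pair went the other way, since the ratio of CTPS2 to CTPS1 was 0.763 times that of MAEL WT (0.689 to 0.846). NME2 against NME1 was 1.36 times as high with an interval that includes 1 (0.98 to 1.90).

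Further pairs were chosen after their values were seen and are given as descriptions. RRM2B, the small subunit of ribonucleotide reductase used outside the S phase, had 1059 and 1091 counts, a log2 fold change of 0.25 and of -0.02 with total counts. RRM2 thus passed from 18.8% to 67.3% of the summed FPKM of the pair, and the ratio of their counts was 8.91 times as high in MAEL KO (7.59 to 10.5). Here too, reads that also fit AC007240.1 may be absent from RRM2. TK1 against TK2, the mitochondrial thymidine kinase, was 4.89 times as high (4.03 to 5.95), and TK1 against DCK 2.18 times (1.82 to 2.62).

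**Figure D4:**
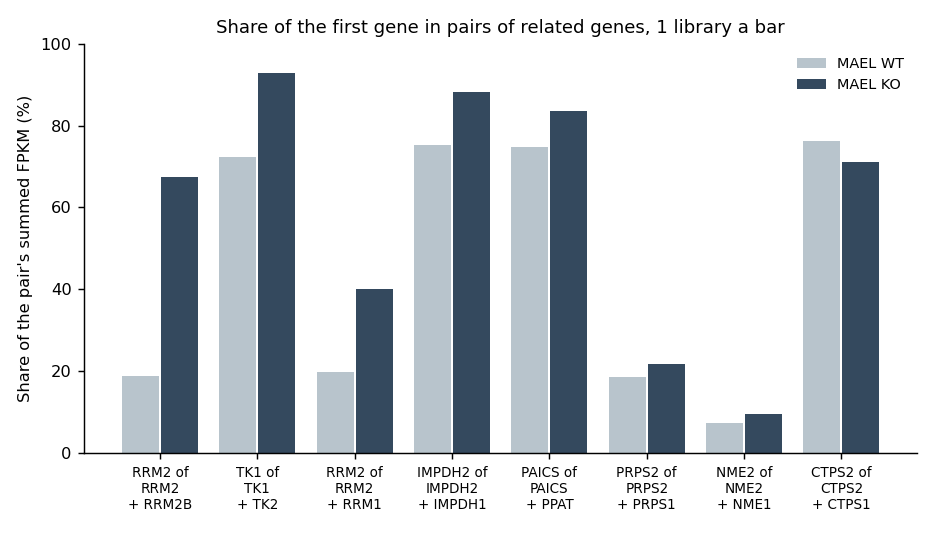
Share of the first gene in the summed FPKM of pairs of related genes, 1 bar for each library (light, MAEL WT; dark, MAEL KO), axis from 0 to 100%. The share of RRM2 against RRM2B goes from 18.8% to 67.3%, while that of CTPS2 against CTPS1 goes from 76.2% to 71.0%.

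Other genes of nucleotide metabolism lay closer to the median of all genes. Of 80 such genes in 6 lists 70 were tested, and their median was 0.16 on the log2 scale, or -0.12 with total counts, 10 above 1 and 9 below -1. Those counts of 70 stand beside 10.2% of all genes above 1 and 16.5% below -1, and the shorter lists that follow are described by their counts alone. The highest median of these lists was that of dNTP supply and pool control, 0.81, with 3 of its 6 genes above 1. Among them were DCTPP1 with 733 and 1683 counts at 1.41 and NUDT1 with 321 and 712 counts at 1.36, both enzymes that hydrolyse modified or surplus nucleotides. SAMHD1, which degrades dNTPs, had 739 and 767 counts, a log2 fold change of 0.26 and of -0.01 with total counts. ITPA, which clears inosine triphosphate, had 884 and 814 counts, a log2 fold change of 0.09 and of -0.18 with total counts.

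Folate one-carbon supply, which provides carbons for purines and for dTMP, had genes at both ends. Its 16 genes had a median of 0.40, with 4 above 1 and 2 below -1. The cytosolic MTHFD1 had 1618 and 4267 counts, at 1.61, and ALDH1L1 had 5 and 46, at 3.16 (2.09 to 5.10). Lower in MAEL KO were the mitochondrial ALDH1L2 with 2463 and 215 counts at -3.30, SHMT2 with 7795 and 2284 counts at -1.56 and MTHFD2 with 6121 and 2756 counts at -0.94.

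Nucleotide breakdown had a median of -0.09 over 14 tested genes of 19, with 4 below -1 and 1 above. AMPD3, an AMP deaminase, had 196 and 24 counts, a log2 fold change of -2.77 (-3.50 to -2.20). NT5E, the ectoenzyme that makes adenosine from AMP, had 1477 and 339 counts, at -1.91 (-2.09 to -1.74). UPB1, of pyrimidine breakdown, had 23 and 3 counts, a log2 fold change of -2.41 (-5.11 to -1.0). DPYD, the first enzyme of pyrimidine breakdown, had 0 and 22 counts. Set against the floor of 3 counts in the MAEL WT library, it was 8.48-fold higher in MAEL KO. That value leaves out the counting error of the 22 counts. The lower limit of its counting interval was 2.66 on the log2 scale, a smaller difference. At the upper end of the rest stood the nucleotidases NT5C3A at 0.65 and NT5C at 0.58.

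Other salvage enzymes had a median of 0.09 over 13 tested genes of 14, with 0 above 1 and 2 below -1. The pyrimidine phosphorylases UPP1 and TYMP were those 2, with 2449 and 861 counts at -1.30 and with 2589 and 940 counts at -1.25. DCTD, the dCMP deaminase, was at -0.63, and CDA at 0.73, PNP at 0.68 and MTAP at 0.37 were the highest. Other synthesis and phosphorylation genes had a median of 0.22 over 16 tested of 18, and AK4, a mitochondrial adenylate kinase, was the only one above 1, with 1164 and 4355 counts at 2.11. ADSSL1 at 0.77 and AK3 at 0.46 followed it, and NME5 at -0.91, AK1 at -0.59 and NME3 at -0.41 were lowest. Nucleoside transporters had a median of 0.15 over 5 tested of 7. SLC29A4 was at 1.08, SLC29A1 at 0.48, SLC29A2 at 0.15 (-0.12 with total counts), SLC29A3 at -0.82 and SLC28A1, with 10 and 2 counts, at -1.71 (-5.34 to 0.12).

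Genes of DNA replication stood as high as the deoxynucleotide genes. All 23 genes of the S-phase replication list were above 1 and 11 were above 2, with a median of 1.98, or 1.70 with total counts, next to 1.97 and 1.70 for the 7 deoxynucleotide genes. MCM4, a subunit of the replicative helicase, had 1033 and 7355 counts, a log2 fold change of 3.04. GINS2 was at 2.66 and ORC1 at 2.56, while ORC6 at 1.33, CHAF1A at 1.5 and CDC6 at 1.5 were lowest. Among 10 tested genes of 11 in the list of E2F factors and MYC the median was 0.65. E2F8 with 59 and 392 counts at 2.92, E2F7 at 2.26 and E2F2 at 1.74 were highest, and MYCL at -1.06, E2F6 at -0.02 and E2F4 at 0.09 (-0.19 with total counts) were lowest. The part of cell cycle phase in the values of the deoxynucleotide genes was not tested.

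**Figure D5:**
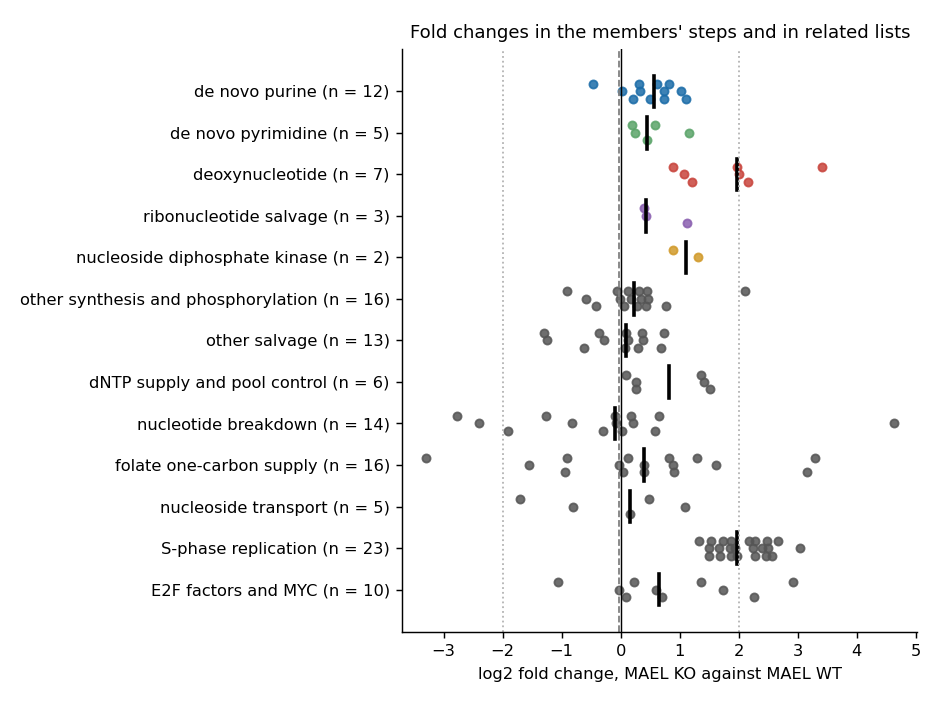
Log2 fold change (MAEL KO over MAEL WT) for each tested gene (points) of the 5 steps and of 8 related lists, with the median of each list (thick bar); the dashed line is the median of all genes, -0.04. Deoxynucleotide and S-phase replication genes centre on 1.97 and 1.98; nucleotide breakdown centres on -0.09, and its point at the far right is DPYD, which had 0 counts in MAEL WT.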

How the data were processed

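RNA of 1 MAEL WT and 1 MAEL KO library of PLC8024 cells was sequenced. The authors deposited read counts per gene, whole numbers without normalization, and FPKM values, which are the counts divided by gene length and a rescaled library size. The submitters' processing notes name HISAT2 2.0.5, featureCounts 1.5.0-p3 and hg19, yet the listed coordinates are GRCh38, at GENCODE 29 positions for 58724 of 58735 rows. Strand use and the handling of reads on several genes are not given in the sources used here. FPKM served for levels and as an alternative scaling.

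Counts were scaled by TMM factors (1.10 for MAEL WT, 0.909 for MAEL KO) in edgeR 4.0.16 under R 4.3.3. SciPy 1.17.1, pandas 2.3.3 and NumPy 2.4.6 on Python 3.11.15 gave the fold changes, and matplotlib 3.10.9 the plots. Genes with at least 10 counts in 1 library entered. Each 95% interval is an exact Clopper-Pearson one on the MAEL KO share of the counts of a gene, and pairs have exact conditional intervals of an odds ratio. Like the floor of 3 counts (0.151 and 0.144 CPM), both cover counting error only, because each group has 1 library. PCR copies of a molecule were not told apart, so counting error itself may be larger than the intervals show. The threshold of 2 is the fold change part of the rule in the study's methods. That rule also set a limit on the adjusted p value, which was not applied here. Scripts were tested on simulated data.

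Members and lists were chosen with earlier results of these data known. Named genes are all 29, up to 3 genes at each end of every other list, rows that overlap a member or are its pseudogenes and hold counts, and MAEL; some genes that this rule covers are left unnamed. Both cell type lists were compared as markers. Alternatives were DESeq2 1.42.0 size factors, total counts, deposited FPKM ratios with 0.01 added, 0.1 or 5 added to counts, no filter, at least 100 counts, protein-coding genes alone, TK1 with DCK among salvage genes, and NME1 summed with NME2. Counts of members above 0 under these were added after the data were seen. Promoter windows are those of RefSeq on GRCh38.p14, with ADSS matched as ADSS2.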

Additional observations from a re-analysis of the deposited data

How the results depend on the processing

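When total counts replaced TMM factors, the median log2 fold change was 0.46 for all 29 genes, 0.29 for de novo purine, 0.17 for de novo pyrimidine, 1.70 for deoxynucleotide and 0.16 for ribonucleotide salvage genes, and 5 members lay above 1 and 1 above 2. PFAS turned to -0.0748, CAD to -0.0361 and CTPS2 to -0.0919. This scaling moved the median of all genes from -0.04 to -0.31, which is its own construction. Of 234 values of single genes under the alternatives, 207 stayed inside their counting interval, and the other 27 were all with total counts. The values with no filter and with at least 100 counts could not move, because all 29 genes pass both. The count above 2 was 2 with 5 added to the counts or with protein-coding genes alone, where 10 members were above 1 and 27 above 0. With TK1 and DCK counted as salvage, the salvage median was 0.88. Leaving out a replicate was not possible with 1 library a group. No paired analysis was possible because each group has 1 library and the labels give no replicate numbers. The counting interval of GART includes 0 with TMM factors, but its value was -0.25 with total counts, so its direction rests on the scaling and not on depth. The interval of the NME2 to NME1 ratio includes 1, and no difference was detectable there at this depth.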

Other observations

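Cytosolic and mitochondrial enzymes of folate metabolism stood at opposite ends of the one-carbon list, and their ratios inside 1 library do not depend on the scaling. These pairs were chosen after their values were seen. SHMT1, the cytosolic serine hydroxymethyltransferase, took 3.63% of the summed FPKM of itself and SHMT2 in MAEL WT and 21.4% in MAEL KO, and the ratio of their counts was 7.21 times as high in MAEL KO (95% interval 6.37 to 8.17). MTHFD1 took 12.1% of the sum with MTHFD2 in MAEL WT and 44.6% in MAEL KO, a ratio 5.86 times as high (5.44 to 6.30). With 1 library a group neither has a replicate check.

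Of 37 listed rows for numbered pseudogenes of the members, 17 held counts, with at most 27 in MAEL WT and 12 in MAEL KO. IMPDH1P8 had 27 and 3 counts, IMPDH1P4 had 14 and 0, RRM2P3 had 12 and 4, PRPS1P2 had 12 in both and DUTP6 had 10 and 1. IMPDH1P5 had 9 and 4, IMPDH1P6 had 7 and 8, PAICSP1 had 6 and 9 and GMPSP1 had 0 and 7, and IMPDH1P3, PPATP1, NME1P1, NME2P1, DUTP2, DUTP7, PAICSP4 and PAICSP7 had at most 3 in either library. Among rows that overlap a member, SON against GART had 6226 and 7641 counts, CTC1 against PFAS had 883 and 637, TMCO1 against UCK2 had 2528 and 2160 and SGSM3 against ADSL had 43 and 7. AL358115.1 against UCK2 had 22 and 11, AL022238.2 against ADSL had 1 and 8 and AC137630.3 against IMPDH2 had 7 in both, and BTF3P6, AC068620.2, AC068620.3, AC022336.1, MIR548AM and S100G, which overlap GART, PPAT, UMPS or CTPS2, had at most 5.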
